A study of Mus musculus with 4 samples.

Results

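The genes examined here serve the detection of foreign or misplaced RNA and DNA by a cell, together with signalling adaptors and a kinase. They were Ddx58, Ifih1, Dhx58, Tlr3 and Eif2ak2 on the RNA side and Cgas and Tmem173 on the DNA side. The adaptors were Mavs and Myd88, and the kinase was Tbk1. These 10 genes were taken by name from the 27179 genes of the count table, by a rule that uses no measured value. Earlier results of these data were known when they were chosen. Ddx58 is also known as Rigi, Cgas as Mb21d1 and Tmem173 as Sting1. All 10 were among the 13580 genes that passed a filter on low counts. RNA from MC38, a mouse colon carcinoma cell line given as WT in the labels, was sequenced in 4 libraries. The untreated control under normoxia and the untreated control under hypoxia received no IFN-γ, and the remaining pair, also 1 under normoxia and 1 under hypoxia, was given IFN-γ. For normoxic and hypoxic culture the methods give 20% and 1.5% oxygen, and for most experiments they give IFN-γ at 5 ng/mL for 24 h. The time at low oxygen for these libraries is not given in the sources used here. Each condition was 1 culture of 1 cell line, so no difference between a pair of libraries has a replicate check. Since the RNA came from whole cultures, a change in the share of cells expressing a gene and a change in the RNA per cell cannot be told apart.

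The libraries held between 34302971 and 34537939 counted reads, and their scaling factors ranged from 0.993 to 1.01. Of 10 markers of colon carcinoma or epithelium, Epcam, Krt18, Cdh1 and Cdx2 had 3 counts or fewer in every library, and the 10 together summed to between 117 and 136 counts per library. The 5 mesenchymal markers, mostly Vim, summed to between 76181 and 82835 counts. Because several of the sensors are abundant in immune cells, markers of such cells were also counted. Summed over 9 macrophage or dendritic cell markers the libraries held 264 to 345 counts. Most of these belonged to Cd68, with 170 to 236 counts per library, and Lyz2, with 69 to 96. Adgre1, Itgam, Flt3 and Siglech were at 3 or fewer everywhere. The T cell, B cell and endothelial markers reached at most 27, 26 and 50 counts.

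RIG-I, MDA5 and LGP2, the products of Ddx58, Ifih1 and Dhx58, are helicases that bind viral or unedited double-stranded RNA in the cytosol. RIG-I and MDA5 signal through MAVS on mitochondria, while LGP2 lacks the signalling domain and modulates the other two. TLR3 detects double-stranded RNA in endosomes, and PKR, encoded by Eif2ak2, binds it and halts translation by phosphorylating eIF2α. For DNA, cGAS makes a cyclic dinucleotide that activates STING, the product of Tmem173. MAVS, STING and TLR3 converge on the kinase TBK1, which activates IRF3 and the type I interferon genes, whereas MyD88 serves most other Toll-like receptors and the IL-1 receptor family. Many of these genes are themselves interferon-stimulated, and tumour cell lines often differ in how much of the cGAS and STING branch they retain.

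IFN-γ was accompanied by higher mRNA of all 5 RNA receptors, of Cgas, and of the adaptor Myd88 and kinase Tbk1, while Mavs and Tmem173 did not pass the test. Thus 8 of the 10 genes were raised in a model with 1 term for IFN-γ and 1 for hypoxia, against 4.76% of all tested genes (edgeR's quasi-likelihood test, Benjamini-Hochberg adjusted p under 0.05). Of the 10, 0 were lowered by adjusted p, and 0 also by unadjusted p or by DESeq2, beside 1.10% of all tested genes lowered. Dhx58 and Tlr3 alone also had a fitted log2 change of at least 1, a size reached with a call by 1.75% of genes. The median fitted log2 change was 0.48 over the 10 genes and -0.01 over all genes tested. With 4 libraries and 3 fitted terms the spread rests on 1 residual degree of freedom plus what is shared across genes, so a p-value measures the departure from additivity between these cultures rather than the variation among repeated cultures.

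The receptors of double-stranded RNA moved the most. Dhx58, encoding LGP2 (NCBI gene 80861, chr11:100694884-100704271, minus strand, GRCm38), had 342 counts in the untreated normoxic library, 412 in the untreated hypoxic library, 790 with IFN-γ under normoxia and 941 with IFN-γ under hypoxia. Both IFN-γ libraries lay above both untreated libraries, and its fitted log2 change of 1.21 (SE 0.0994) had an edgeR adjusted p of 4.51e-32. Tlr3 (gene 142980, chr8:45395665-45411075, minus strand) had 454, 576, 1049 and 1197 counts in the same order. The fitted change of Tlr3 was 1.14 (SE 0.0889, edgeR adjusted p = 1.52e-35), again with no overlap between treated and untreated libraries. How many of all tested genes separate treated from untreated libraries in this way was not counted, for these genes or for those below. Under each of 6 other analyses both genes still passed, with adjusted p from 4.36e-11 to 0.00881 for Dhx58 and from 2.31e-12 to 0.0109 for Tlr3.

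Among the helicases that signal through MAVS, Ifih1 changed more than Ddx58 in fitted value, although Ddx58 had more counts in every library. Ifih1, encoding MDA5 (gene 71586, chr2:62595618-62646255, minus strand), had 1146 counts untreated under normoxia, 1141 untreated under hypoxia, 1840 with IFN-γ under normoxia and 2147 with IFN-γ under hypoxia. Ddx58, encoding RIG-I (gene 230073, chr4:40203777-40239825, minus strand), had 3342, 3592, 5037 and 5047. Both genes were higher in the 2 IFN-γ libraries than in either untreated one. The fitted log2 changes were 0.81 (SE 0.0752, edgeR adjusted p = 3.76e-25) for Ifih1 and 0.55 (SE 0.0605, edgeR adjusted p = 4.14e-18) for Ddx58. Eif2ak2, encoding PKR (gene 19106, chr17:78850504-78882572, minus strand), went from 2099 and 2406 counts without IFN-γ to 3153 and 3295 with it, normoxia given first. Its fitted change of 0.53 (SE 0.0661, edgeR adjusted p = 4.63e-14) was close to that of Ddx58. All 3 passed in each of the 6 other analyses, where the highest adjusted p were 0.0109, 0.0199 and 0.0453 for Ifih1, Ddx58 and Eif2ak2 and the lowest were 6.76e-10, 9.53e-10 and 5.10e-07.

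**Figure D1:**
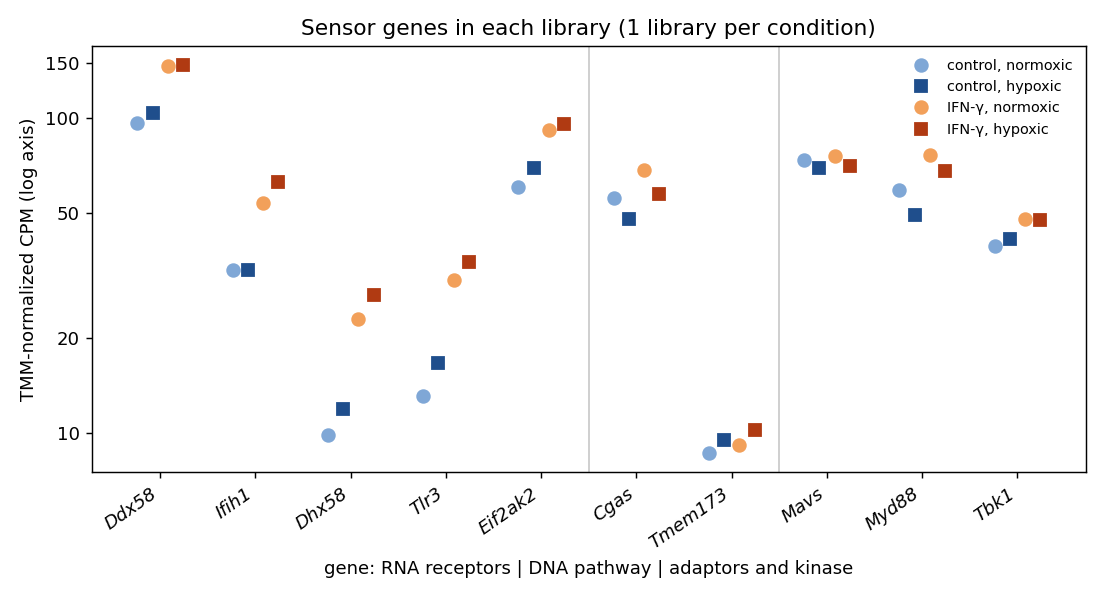
TMM-normalized CPM (counts scaled to a common library size, log axis) of the 10 sensor genes in each of the 4 libraries, 1 point per library and no error bars. For each RNA receptor both IFN-γ points lie above both untreated points, and the share of all tested genes separated in this way was not counted. The points run from 9.88 to 27.5 CPM for Dhx58 and from 96.5 to 147.3 CPM for Ddx58. The 4 points of Mavs lie between 69.7 and 75.8 CPM.

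In the DNA pathway Cgas passed the IFN-γ test and Tmem173 did not, and the difference between them was not tested. Cgas (gene 214763, chr9:78430518-78443237, minus strand) had 1935 counts untreated under normoxia, 1661 untreated under hypoxia, 2346 with IFN-γ under normoxia and 1968 with IFN-γ under hypoxia. The IFN-γ libraries lay above the untreated ones, but IFN-γ under hypoxia barely exceeded the untreated normoxic library. The fitted log2 change of Cgas with IFN-γ was 0.28 (SE 0.0708, edgeR adjusted p = 0.00265), and it passed in 4 of the 6 other analyses, with adjusted p from 0.00841 to 0.897. Tmem173, encoding STING (gene 72512, chr18:35733678-35740554, minus strand), was detected at 300, 328, 314 and 352 counts in the same order, so that treated and untreated libraries overlapped. Its fitted change was 0.10 (SE 0.127, edgeR adjusted p = 0.872), and the 95% counting intervals of its log2 ratio ran from -0.15 to 0.31 under normoxia and from -0.11 to 0.34 under hypoxia. These intervals, like the others given here, cover counting error only.

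Of the adaptors and the kinase, Myd88 (gene 17874, chr9:119335934-119340018, minus strand) had 2044 counts untreated under normoxia and 1706 untreated under hypoxia. With IFN-γ it had 2631 under normoxia and 2334 under hypoxia. Its fitted IFN-γ change of 0.42 (SE 0.0695, edgeR adjusted p = 6.25e-08) passed in 5 of the 6 other analyses, over which the adjusted p ranged from 4.71e-05 to 0.275. Tbk1 (gene 56480, chr10:121546455-121586794, minus strand) rose from 1361 and 1435 counts to 1642 and 1626. Its fitted change of 0.24 (SE 0.0749, edgeR adjusted p = 0.0271) passed in only 2 of the 6, with adjusted p from 0.0448 to 0.743. Mavs (gene 228607, chr2:131234063-131248025, plus strand), through which RIG-I and MDA5 signal, stayed between 2410 and 2600 counts in the 4 libraries, with the IFN-γ and untreated values interleaved. The fitted change of Mavs was 0.03 (SE 0.0672, edgeR adjusted p = 0.948), and the counting interval of its log2 ratio reached no higher than 0.12 under normoxia and 0.10 under hypoxia.

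Read pair by pair, the same genes had IFN-γ ratios above counting error at both oxygen levels. The counting interval of the log2 ratio lay above 0 for 8 of the 10 genes under normoxia and for the same 8 under hypoxia, against 18.1% and 17.0% of all tested genes. Under normoxia the ratios of these 8 ran from 0.28 for Tbk1 to 1.22 for Dhx58 and Tlr3, and under hypoxia from 0.19 for Tbk1 to 1.20 for Dhx58.

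**Figure D2:**
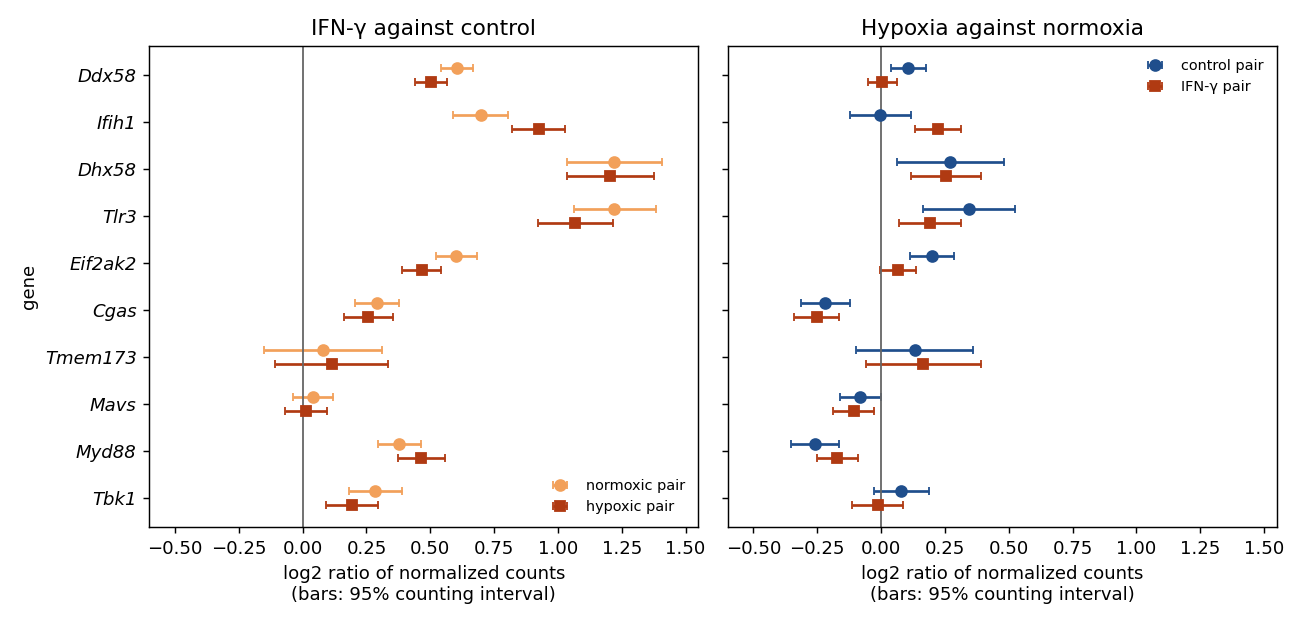
Log2 ratios of normalized counts for the 10 sensor genes between single libraries, with IFN-γ at each oxygen level on the left and hypoxia without or with IFN-γ on the right, where bars are 95% counting intervals. On the left the RNA receptors lie farthest from 0, up to 1.22, and on the right every point lies between -0.26 and 0.35.

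With hypoxia the fitted log2 changes of the 10 genes had both signs and lay between -0.24 and 0.26, against 0.03 to 1.21 with IFN-γ. In the same edgeR model Tlr3 passed as raised, 1 of 10 against 8.21% of all tested genes. Cgas and Myd88 passed as lowered, 2 of 10 against 6.83%. Whether these counts depart from the shares of all genes was not tested. The fitted log2 changes were 0.26 for Tlr3 (SE 0.0883, edgeR adjusted p = 0.0277), -0.24 for Cgas (SE 0.0708, edgeR adjusted p = 0.00968) and -0.21 for Myd88 (SE 0.0694, edgeR adjusted p = 0.0190). None of these calls held in every analysis: over the 6 others the adjusted p reached 0.854, 0.430 and 0.642, from lowest values of 0.0407, 0.0165 and 0.0278, and DESeq2's Wald test called 0 of the 10, with 2 at an unadjusted p under 0.05. The fitted change of Dhx58, 0.26 (SE 0.0986), was as large as that of Tlr3 but missed the threshold (edgeR adjusted p = 0.0527, and 0.0627 to 0.851 in the other analyses). The median fitted hypoxia change was 0.09 over the 10 genes and 0.0047 over all genes tested.

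By counting error alone, hypoxia without IFN-γ raised Ddx58, Dhx58, Tlr3 and Eif2ak2, 4 of 10 against 23.5% of all genes, and lowered Cgas, Mavs and Myd88, 3 of 10 against 21.8%. With IFN-γ present, the intervals of Ifih1, Dhx58 and Tlr3 lay above 0, 3 of 10 against 22.0%, and those of the same 3 genes Cgas, Mavs and Myd88 lay below 0 against 23.8%. Cgas was lower under hypoxia by a similar ratio without IFN-γ, -0.22 (interval -0.31 to -0.12), and with it, -0.25 (-0.34 to -0.17). Myd88 had ratios of -0.26 (-0.35 to -0.16) and -0.17 (-0.25 to -0.09). Mavs, at -0.08 and -0.11, moved in the same direction by less.

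Against the untreated normoxic culture, the culture given IFN-γ under hypoxia had more mRNA of the RNA receptors and nearly equal Cgas. Dhx58 was 2.78-fold higher, Tlr3 2.66-fold, Ifih1 1.89-fold, Eif2ak2 1.59-fold and Ddx58 1.53-fold. Cgas, for which IFN-γ and hypoxia had fitted changes of opposite sign, differed by only 1.03-fold, a log2 ratio of 0.04 whose interval of -0.05 to 0.13 included 0. Myd88 was 1.15-fold and Tbk1 1.21-fold higher. Tmem173 was 1.19-fold higher, with a log2 interval of 0.02 to 0.47 that lay just above 0, although neither of its fitted changes passed the test. Mavs stood at 0.955-fold (log2 interval -0.15 to 0.01).

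Whether the IFN-γ change depended on oxygen could be described but not tested. For Ifih1 the log2 ratio with IFN-γ was 0.70 (interval 0.59 to 0.80) under normoxia and 0.92 (0.82 to 1.03) under hypoxia, a difference of 0.23 with a counting interval of 0.08 to 0.38. Without IFN-γ the 2 libraries held almost equal Ifih1 counts, and the gap between normoxia and hypoxia appeared only in the treated pair. Ddx58, the other helicase that signals through MAVS, went the opposite way, with a difference of -0.10 (-0.19 to -0.01), and so did Eif2ak2, with -0.13 (-0.24 to -0.02). Thus 1 of the 10 intervals lay above 0 and 2 lay below, against 14.8% and 19.7% of the 10443 genes that had 100 counts or more throughout. A difference as far from 0 as that of Ifih1 was seen in 18.0% of those genes, and as far as those of Ddx58 and Eif2ak2 in 51.1% and 39.1%. Dhx58, with -0.02, had nearly equal IFN-γ ratios at both oxygen levels.

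Compared per kilobase of the longest transcript with a RefSeq mRNA record, the adaptors and RIG-I were the most abundant mRNAs. The most inducible receptors were among the least. In the untreated normoxic library Myd88 stood at 30.1 CPM per kb, Ddx58 at 24.9 and Mavs at 24.1, and the counting intervals did not separate Ddx58 from Mavs. Eif2ak2, Cgas and Tbk1 followed at 14.1, 13.8 and 13.0, and neighbours in this group were not separated. Ifih1 stood at 6.05, Dhx58 at 4.10, Tmem173 at 3.77 and Tlr3 at 2.98, with Dhx58 and Tmem173 not separated. With IFN-γ under hypoxia Ddx58 stood at 38.0, Ifih1 at 11.5, Dhx58 at 11.4 and Tlr3 at 7.93, and Tmem173 was the lowest of the 10 at 4.47. The place of Ddx58 depends on the length used, since by the length of all its exons together it was the third in both libraries.

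The RefSeq promoter table held 8 of the 10 genes, all but Dhx58 and Tmem173, each as a window from 250 bases before to 50 bases after the transcript start in GRCm38.p6. Each window was searched on both strands for the interferon-stimulated response element (ISRE), written as GAAA, any 2 bases and GAAA, for the STAT-binding GAS element TTCNNNGAA, and for a hypoxia response core, ACGTG or GCGTG. An ISRE match was found in Ddx58, Ifih1, Eif2ak2 and Myd88, 4 of 8, while 3.44% of all 32851 promoter windows held one. GAS matches lay in Eif2ak2 and Myd88, 2 of 8 against 8.30% of all windows. The windows of Tlr3, Cgas and Tbk1, which also passed the IFN-γ test, held neither an ISRE nor a GAS match. Mavs, which did not pass it, held neither as well. The hypoxia core was found in 5 of 8, namely Ddx58, Eif2ak2, Cgas, Mavs and Tbk1, against 43.8%. Of these, Cgas passed the hypoxia test and was lower, while Tlr3 and Myd88, which also passed it, held no core.

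**Figure D3:**
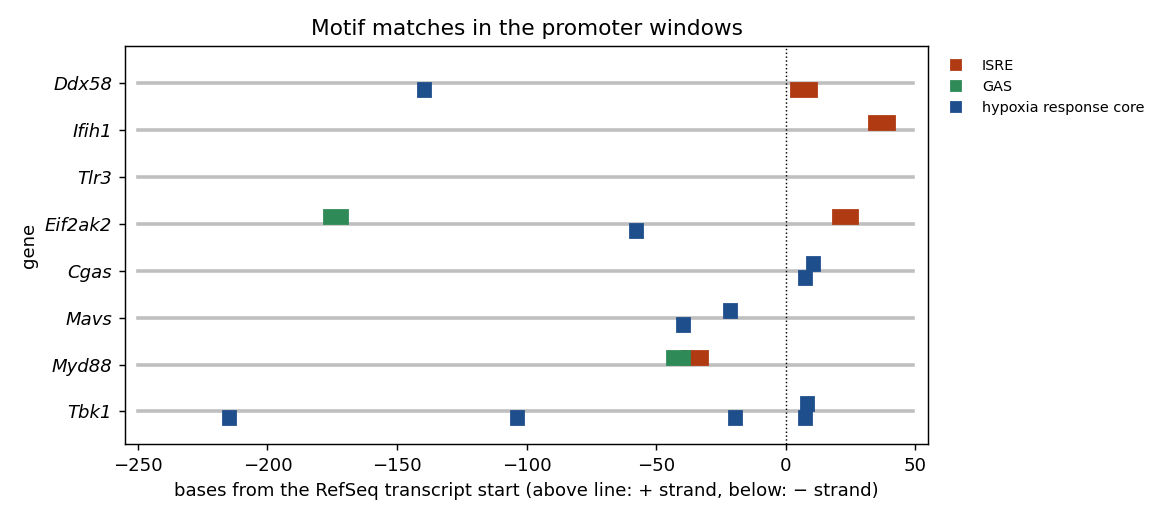
Positions of ISRE, GAS and hypoxia core matches in the 8 promoter windows, in bases from the RefSeq transcript start, with matches on the transcript's own strand drawn above the line and those on the other strand below. Ddx58, Ifih1 and Eif2ak2 carry their ISRE within 41 bases after the start, Myd88 carries overlapping GAS and ISRE matches before it, and Tlr3 carries none.

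The windows of the 4 genes with an ISRE are shown because IFN-γ raised each of them, and that of Tlr3 because IFN-γ raised it more while its window held no match. They read 5′ to 3′ along the transcript, and capitals mark the ISRE and GAS matches. The windows are chr4:40239776-40240075 for Ddx58, chr2:62646206-62646505 for Ifih1, chr17:78882523-78882822 for Eif2ak2, chr9:119339969-119340268 for Myd88 and chr8:45410331-45410630 for Tlr3, all on the minus strand. Counted from the first transcribed base as 0, the Ddx58 match spans 2 to 11 and lies on the opposite strand, the Ifih1 match spans 32 to 41, and the Eif2ak2 ISRE spans 18 to 27 with its GAS match at -178 to -170. In Myd88 the GAS match at -46 to -38 runs into the ISRE match at -40 to -31, so the capitals form 1 block.
Ddx58: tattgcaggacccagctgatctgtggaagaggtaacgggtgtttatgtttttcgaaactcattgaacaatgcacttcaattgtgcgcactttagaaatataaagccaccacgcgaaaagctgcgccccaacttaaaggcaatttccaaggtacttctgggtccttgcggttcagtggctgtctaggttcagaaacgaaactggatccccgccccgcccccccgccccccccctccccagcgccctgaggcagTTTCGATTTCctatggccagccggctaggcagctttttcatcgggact
Ifih1: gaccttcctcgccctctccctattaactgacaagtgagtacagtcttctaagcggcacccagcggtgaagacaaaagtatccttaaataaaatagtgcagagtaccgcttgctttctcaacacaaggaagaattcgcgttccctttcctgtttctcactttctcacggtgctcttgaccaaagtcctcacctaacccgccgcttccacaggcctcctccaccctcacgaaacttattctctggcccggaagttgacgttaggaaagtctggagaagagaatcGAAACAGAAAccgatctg
Eif2ak2: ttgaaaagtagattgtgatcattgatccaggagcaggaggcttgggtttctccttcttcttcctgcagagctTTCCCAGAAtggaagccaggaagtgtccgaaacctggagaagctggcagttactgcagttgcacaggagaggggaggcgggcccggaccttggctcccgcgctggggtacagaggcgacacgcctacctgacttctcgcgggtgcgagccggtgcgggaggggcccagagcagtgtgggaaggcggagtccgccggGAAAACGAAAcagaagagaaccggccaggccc
Myd88: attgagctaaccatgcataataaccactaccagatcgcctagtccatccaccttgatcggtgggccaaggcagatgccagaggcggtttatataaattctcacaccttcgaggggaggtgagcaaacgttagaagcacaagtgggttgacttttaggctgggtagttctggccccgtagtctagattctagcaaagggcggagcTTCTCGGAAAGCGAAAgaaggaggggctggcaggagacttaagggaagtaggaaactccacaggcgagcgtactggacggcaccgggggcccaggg
Tlr3: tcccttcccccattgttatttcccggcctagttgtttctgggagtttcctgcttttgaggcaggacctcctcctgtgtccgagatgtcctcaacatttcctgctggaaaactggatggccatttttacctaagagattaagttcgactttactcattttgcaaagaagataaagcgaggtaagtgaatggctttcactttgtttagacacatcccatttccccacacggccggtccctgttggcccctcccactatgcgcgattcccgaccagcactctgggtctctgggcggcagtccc
A match is a string of letters in this window, and its absence from the Tlr3 window says nothing about sequence outside it. The Tlr3 window is set on a transcript start that lies inside the annotated gene, so the outer end of Tlr3 was not searched.

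Genes that assist or restrain the RNA sensors were raised in part. Of 20 such genes 19 were tested, and IFN-γ raised 8, against 4.76% of all tested genes, and between 3 and 8 in the other analyses, with a median fitted log2 change of 0.06. By edgeR and by DESeq2 it lowered 0, with 1 lowered at an unadjusted p under 0.05. They included Ddx60, a helicase linked to RIG-I signalling, at 1.24, Lgals3bp, a secreted glycoprotein, at 0.84, Trim14, which binds MAVS, at 0.58, and Rnf135, the ubiquitin ligase also called Riplet that activates RIG-I, at 0.55. Adar, which edits double-stranded RNA so that it escapes MDA5 and PKR, was raised by 0.49, Zc3hav1, the antiviral zinc finger protein ZAP, by 0.40, the deubiquitinase Cyld by 0.34, and the ubiquitin ligase Trim25 by 0.21. Hypoxia raised 4 of the 19, against 8.21% of all tested genes, among them Ddx60 at 0.48 and Trim14 at 0.46. It lowered 1, Pcbp2, at -0.18, against 6.83%. Among 10 other eIF2α kinases and PKR partners, 0 passed for IFN-γ by edgeR, by unadjusted p or by DESeq2, and their fitted changes lay between -0.16 and 0.07 with a median of 0.03. Hypoxia raised 1 of these 10, against 8.21% of all tested genes. It was Eif2ak3, the kinase PERK of the unfolded protein response, at 0.225 (edgeR adjusted p = 0.0400). The number raised was 1 with DESeq2 size factors in edgeR and 0 in the remaining alternatives.

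The cofactors of DNA sensing held the gene with the largest change of any list. Zbp1, a sensor of left-handed nucleic acids that also triggers cell death, had 120 counts untreated under normoxia, 159 untreated under hypoxia, 2531 with IFN-γ under normoxia and 3214 with IFN-γ under hypoxia. Its fitted log2 change with IFN-γ was 4.38. Of 24 genes in this list 22 were tested, and IFN-γ raised 4, against 4.76% of all tested genes, and 3 or 4 in the other analyses, with a median of 0.03. It lowered 0 by edgeR, by unadjusted p and by DESeq2. Beside Zbp1 these were Ifi204, a DNA-binding protein of the interferon-inducible p200 family, at 1.08, the ubiquitin ligase Trim56 at 1.06, and Samhd1, which degrades deoxynucleotides, at 0.64. Ifi204 has close relatives in the genome, so its reads may be shared with them. Hypoxia raised 3 of the 22, against 8.21% of all tested genes, and lowered 2, against 6.83%. The raised genes were Ifi204 at 0.69, Zbp1 at 0.36 and the transporter Abcc1 at 0.30, and the lowered ones were the cyclic dinucleotide importer Slc19a1 at -0.49 and the lysosomal nuclease Dnase2a at -0.27.

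Downstream of the sensors the median fitted IFN-γ changes were 0.07 for adaptors and kinases and 0.14 for transcription factors. Among 21 tested adaptors and kinases of 23, IFN-γ raised 2, against 4.76% of all tested genes, with Irak2, a kinase recruited by MyD88, at 2.16 (161, 131, 589 and 708 counts in the order used above) and Optn, an autophagy receptor bound by TBK1, at 0.27. Hypoxia raised 3 of them, against 8.21% of all tested genes: Optn at 0.50, the TBK1-binding protein gene Tbkbp1 at 0.31 and Ikbkg at 0.30. Of 9 transcription factors IFN-γ raised 3, against 4.76% of all tested genes: Irf1 at 2.43, Irf5 at 2.10 and Irf7 at 1.37. Irf3, the factor TBK1 phosphorylates, had a fitted change of -0.11 (edgeR adjusted p = 0.609, and 0.460 to 0.9999 in the other analyses). Irf5 was scarce, with 19, 6, 43 and 64 counts, and 2 or 3 of the factors were called in the other analyses. Hypoxia raised 2 of the 9, Irf1 at 0.24 and Jun at 0.20, against 8.21% of all tested genes. Of 16 other Toll-like receptors and chaperones only 9 passed the low-count filter, and the 1 called with IFN-γ, Tlr12, had 6, 6, 14 and 32 counts and was called in none of the 6 other analyses. In each of these pathway lists the number raised by hypoxia fell to 0 in at least 1 of the 6.

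**Figure D4:**
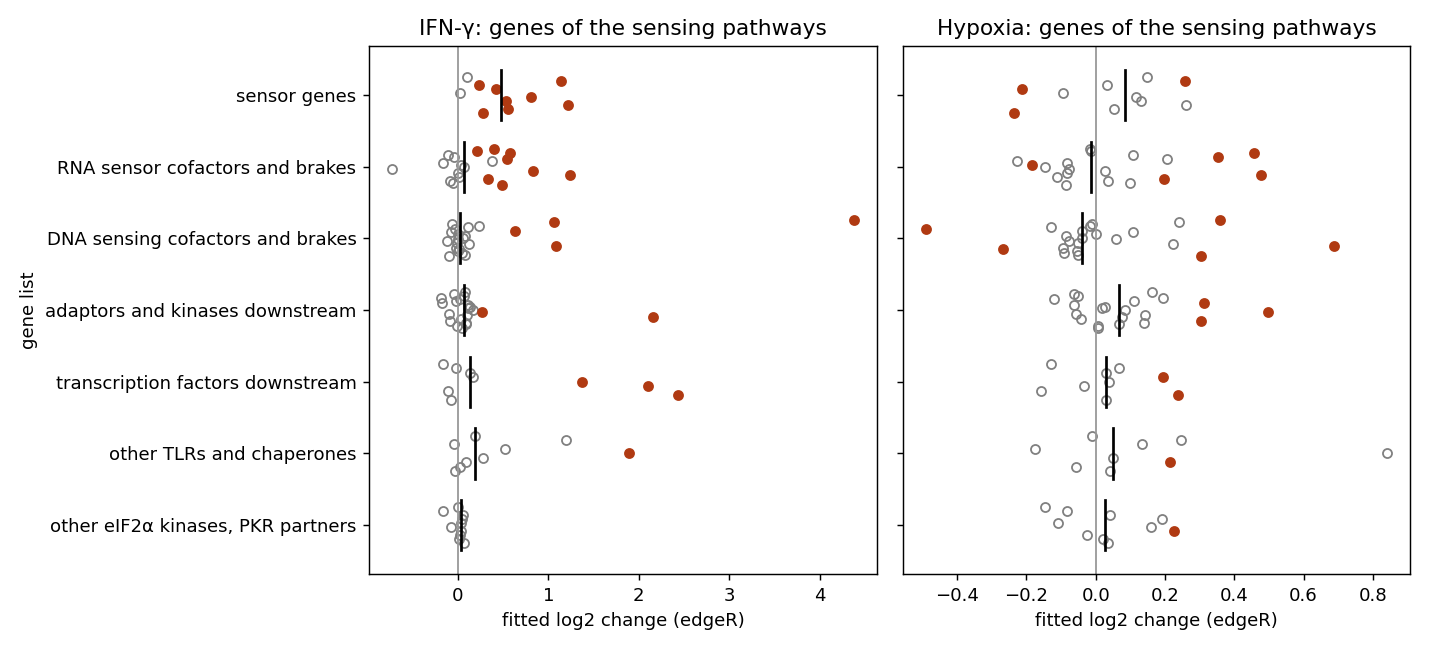
Fitted log2 changes (edgeR) for IFN-γ on the left and hypoxia on the right, 1 point per tested gene, for the sensor genes and for 6 lists of pathway genes, where filled points passed an adjusted p of 0.05, open points did not, black bars are list medians and the panels have separate scales. The points of the 10 sensor genes lie between 0.03 and 1.21 for IFN-γ and between -0.24 and 0.26 for hypoxia.

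The interferon genes that these sensors switch on when engaged were not detectable at this depth, apart from 1. Of 20 type I and III interferon genes counted, 16 had no read in any library, and 19 had at most 2 counts in each, where a count of 0 allows up to 0.0869 to 0.0875 CPM. Ifnb1 had 2, 0, 2 and 2 counts. Ifnz had 6, 17, 11 and 10 counts and passed neither test. Of 7 tested genes of the type I interferon receptor and its signalling, IFN-γ raised 3, against 4.76% of all tested genes. It lowered 0, and the median fitted log2 change was 0.24. Among those raised were Stat2 and Irf9, with fitted log2 changes of 1.51 and 0.82. Hypoxia raised 2 of the 7, Jak1 at 0.29 and Stat2 at 0.25, against 8.21% of all tested genes, and 0 to 2 in the other analyses. Stat2 had 2852 and 3224 counts without IFN-γ and 7676 and 9489 with it, normoxia given first.

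By the distance between log2 profiles over the 4 libraries, the 5 genes most like Dhx58, the sensor gene with the highest fitted IFN-γ change, were Trim30a, H2-M3, Sp100, Tlr3 and Trim30d, at distances of 0.0775 to 0.0987 among 11489 genes averaging 50 counts or more per library. Tlr3 was thus the fourth nearest of all genes. Trim30a and Trim30d belong to a family of close copies, whose reads may be shared.

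Some reads could belong to a neighbouring gene. The exons of Myd88 share 11.3% of their bases with Acaa1a on the opposite strand, which had 1245 to 1387 counts per library, and those of Tlr3, Cgas, Dhx58 and Eif2ak2 share between 0.919% and 7.32% with non-coding genes on the opposite strand, each such gene taken singly. The libraries kept strand, but the strand setting of the counting is not given in the sources used here. At most 4.08% of the 31-base words of any of the 10 genes, in Eif2ak2, also occur in another gene.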

How the data were processed

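Poly-A RNA of 4 MC38 cultures was sequenced by the authors as strand-specific paired reads on DNBSEQ and aligned with Hisat2. The submitters' processing notes name featureCounts and mm10, which is GRCm38. Their versions, the annotation and the strand setting are not given in the sources used here. The deposited values are raw counts per NCBI gene, 1 column per library, with no normalization by the authors. Depth was 34302971 to 34537939 counts per library.

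Genes were named through RefSeq (GRCm38.p6), and libraries were grouped by their labels. The main test was edgeR 4.0.16 (R 4.3.3, limma 3.58.1) with its quasi-likelihood F test over all 4 libraries, 1 term for IFN-γ and 1 for hypoxia, TMM scaling, a count minimum of 10 (filterByExpr), and Benjamini-Hochberg adjustment over 13580 genes at 0.05. The SE is the absolute log2 change divided by the square root of F. Single pairs of libraries were compared as log2 ratios of normalized counts with 0.5 added and exact (Clopper-Pearson) 95% intervals of the split of reads, which cover counting error only. The interval of a difference between ratios assumes Poisson counts. Floors are 3 counts per library. The edgeR step was tested on simulated data.

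Alternatives were DESeq2 1.42.0 (Wald test), DESeq2 size factors in edgeR, no filter, at least 10 counts in every library, total counts in place of TMM, and a model without the other stimulus. These are the 6 other analyses. Requiring a log2 change of at least 1 and adding 5 counts to the ratios were also tried. The sensor genes, the pathway and marker lists and the tests were chosen with earlier results of these data known. The genes named are all 10 sensor genes, list genes that passed the test (1 is not reported here), and the 5 genes most like Dhx58 in profile. Other list genes named without a call (Irf3, Ifnb1 and Ifnz) were singled out after their values were seen.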

Additional observations from a re-analysis of the deposited data

Results flagged for a closer look

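For 2 of the sensor genes the change with hypoxia had opposite signs in the untreated and the IFN-γ-treated pair, each pair being 1 library against 1, and neither difference was tested. The log2 ratio of Ifih1 was -0.00 without IFN-γ and 0.22 with it, a difference of 0.23. The ratio of Tbk1 was 0.08 without IFN-γ and -0.01 with it, a difference of -0.092. The untreated ratio of Ifih1 and both ratios of Tbk1 had counting intervals that included 0.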

How the results depend on the processing

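Among the 10 sensor genes, all kept the sign of both fitted changes in each of the 6 other analyses. For IFN-γ the number called was 8 in the main analysis, 5 when hypoxia was left out of the model and 2 when a log2 change of at least 1 was also required. It was 6 with DESeq2's Wald test and 7 or 8 in the others. The calls lost were those of Tbk1 in 4 analyses, Cgas in 2 and Myd88 in 1. For hypoxia the 3 calls became 0 with DESeq2's Wald test (2 at unadjusted p under 0.05), 0 when IFN-γ was left out of the edgeR model (0 at unadjusted p under 0.05), and 0 when edgeR calls also had to reach a log2 change of 1. The cause was not tested. Leaving a stimulus out adds its effect to the spread between libraries, whereas DESeq2's Wald test was run with both stimuli in the model. The median difference between the IFN-γ ratios at the 2 oxygen levels was -0.03, and between -0.03 and -0.01 in the alternatives. No paired analysis was possible because each condition had 1 library. Fits without 1 library were not run. In the model with both stimuli they would have no residual degrees of freedom. The depth limits statements on the interferon genes and on Tlr12 and Irf5.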
